A study of Mus musculus with 8 samples.

Results

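The Nlrp4, Nlrp9 and Nlrp14 genes are a branch of the NLRP family that is expressed in the germ line and lies outside the subcortical maternal complex, the protein assembly beneath the oocyte membrane that contains NLRP5. The 8 genes Nlrp4a, Nlrp4b, Nlrp4c, Nlrp4e, Nlrp9a, Nlrp9b, Nlrp9c and Nlrp14 were taken by symbol from count tables of 37310 genes, and all 8 were matched and passed the filter on low counts. Their identifiers, in that order, are ENSMUSG00000040601, ENSMUSG00000034087, ENSMUSG00000034690, ENSMUSG00000045693, ENSMUSG00000054102, ENSMUSG00000060508, ENSMUSG00000040614 and ENSMUSG00000016626. The data are RNA-seq counts of 8 pooled samples of mouse 2-cell embryos of the C57BL/6N strain. The 4 DKO pools are labelled as a double knockout of Gadd45a and Gadd45b and held 23, 27, 28 and 35 embryos, and the 4 wild-type pools held 23, 30, 25 and 25. Each pool was 1 litter, collected 20 h after the plug from superovulated, naturally mated females of 3 to 4 weeks. The DKO mothers were themselves DKO, so loss of the maternal and of the embryonic gene products cannot be told apart.

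NLRP proteins are members of the NLR class of cytoplasmic proteins, built around a nucleotide-binding NACHT domain followed by leucine-rich repeats. Some, such as NLRP3, assemble inflammasomes in immune cells. In mice the Nlrp4 and Nlrp9 groups expanded by duplication, and their transcripts are made in the growing oocyte, stored, and inherited by the embryo, which replaces maternal RNA with its own around the 2-cell stage.

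Libraries held 21329736 to 23919114 counts and 18433 to 20427 detected genes. Gadd45b had 4, 14, 1 and 6 counts in the DKO libraries, against 910, 946, 1395 and 808 in the wild-type libraries. Gadd45a had 237, 247, 163 and 201 counts in DKO and 482, 341, 502 and 468 in wild-type, a log2 fold change of −1.09 with an SE of 0.22 (adjusted p by edgeR = 0.303). Gadd45a thus averaged 9.40 CPM in DKO and 20.0 CPM in wild-type, and every DKO library was below every wild-type library. Gene counts showed the near absence of Gadd45b RNA, while Gadd45a RNA was lower but still present. Of 9 markers of the 2-cell stage 7 were matched, and their summed level was 757 to 1131 CPM (counts scaled to library size, with TMM factors) in DKO and 575 to 988 CPM in wild-type pools. By smallest p they were led by Tdpoz4 at −0.88 ± 0.26 and Zfp352 at 0.37 ± 0.17 (log2 ratios with SE, adjusted p by edgeR of 0.469 and 0.489). Of 10 cumulus and granulosa markers Ptx3, Inhba, Foxl2 and Amh had 0 counts in all 8 libraries. The list summed to 8.74 to 14.4 CPM in DKO and 9.19 to 13.0 CPM in wild-type. Most of this was Tnfaip6, at 8.75 ± 2.54 CPM in DKO and 7.94 ± 2.27 CPM in wild-type (SD over 4 pools each). The smallest p there were those of Cyp19a1 at 0.45 ± 0.41 and Star at 0.59 ± 0.92 (log2 ratios with SE, adjusted p by edgeR of 0.688 and 0.822). Of 8 sperm and spermatid markers Smcp had 0 counts, and the list summed to 51.8 to 109 CPM in DKO and 57.7 to 66.4 CPM in wild-type. Most of this was Odf2, at 76.3 ± 23.2 CPM in DKO and 62.0 ± 3.35 CPM in wild-type (SD over 4 pools each). Of Prm1, Prm2, Tnp1, Tnp2 and Akap4, which were not tested, Prm2 was highest. It averaged 0.599 ± 0.303 CPM in DKO and 0.267 ± 0.047 CPM in wild-type (SD over 4 pools each). Odf2 was at 0.30 ± 0.20 and Odf1 at 0.67 ± 0.66 (log2 ratios with SE, adjusted p by edgeR of 0.575 and 0.71). DKO replicate 1 stood apart, with the lowest sample weight of the 8 libraries in limma-voom (0.365), and the main results are also given without it.

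The 8 genes lie on chromosome 7. Nlrp9c, Nlrp4a and Nlrp9a form 1 cluster in GRCm38, with no gap above 200 kb. Each of the other 5 genes lies at least 200 kb from any other of the 8. NLRP genes outside the 8 were left out of this grouping. Nlrp9c is on the minus strand and the others on the plus strand. RefSeq promoters (GRCm38.p6, 250 bases before to 50 after a start) were found for 7 of the 8 genes. The pair below is shown because the promoters of Nlrp9c and Nlrp9a, whose levels differ several fold, matched in 227 of 244 aligned columns (93.0%). Capitals mark 4 motifs searched on both strands, CANNTG (the E-box of bHLH factors such as FIGLA), TAATTG (a NOBOX element), TATAAA and CCAAT, which may overlap. The Nlrp9c promoter is chr7:26403651-26403950 on the minus strand and the Nlrp9a promoter is chr7:26534773-26535072 on the plus strand.
Nlrp9c: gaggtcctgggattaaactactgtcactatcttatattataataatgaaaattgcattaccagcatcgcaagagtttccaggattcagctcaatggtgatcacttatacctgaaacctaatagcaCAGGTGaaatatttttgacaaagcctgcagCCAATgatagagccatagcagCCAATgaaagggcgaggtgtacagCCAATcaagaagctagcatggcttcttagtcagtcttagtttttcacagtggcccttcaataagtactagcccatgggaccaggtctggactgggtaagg
Nlrp9a: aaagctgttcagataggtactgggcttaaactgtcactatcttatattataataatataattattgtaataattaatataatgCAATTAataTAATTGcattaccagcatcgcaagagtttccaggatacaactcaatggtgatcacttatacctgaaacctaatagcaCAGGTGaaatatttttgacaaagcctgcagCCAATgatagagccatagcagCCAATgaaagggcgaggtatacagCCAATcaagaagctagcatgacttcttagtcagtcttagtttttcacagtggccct

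Nlrp9c, Nlrp9a and Nlrp4c each held 3 CCAAT matches, a number reached by 3.37% of 32851 RefSeq promoters of the same length. The Nlrp4a, Nlrp4b and Nlrp4c promoters shared another arrangement, CCAAT followed at once by the E-box CACATG, shown in the windows below with 50 bases on either side. This string was chosen after the sequences were seen, and 12 of the 32851 promoters (0.0365%) held it on either strand, 4 of them from these 3 genes. Of those 4, 2 are overlapping promoters of Nlrp4b with the string at the same site. The other 8 genes with it, of which 4 were tested, included Mtr, the methionine synthase, and Mpv17l2, a mitochondrial protein. The windows are chr7:26435514-26435624 for Nlrp4a (its second start), chr7:10687689-10687799 for Nlrp4b and chr7:6045093-6045203 for Nlrp4c, all GRCm38.p6 and plus strand.
Nlrp4a: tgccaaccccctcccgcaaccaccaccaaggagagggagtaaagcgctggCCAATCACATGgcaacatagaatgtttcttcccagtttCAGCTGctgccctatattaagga
Nlrp4b: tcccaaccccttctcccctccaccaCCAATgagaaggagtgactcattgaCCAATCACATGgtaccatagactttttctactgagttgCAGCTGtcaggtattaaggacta
Nlrp4c: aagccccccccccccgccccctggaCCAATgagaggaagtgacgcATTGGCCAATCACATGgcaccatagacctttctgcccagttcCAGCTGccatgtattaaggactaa

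An E-box was found in all 9 member promoters, against 72.3% of all promoters, and CCAAT in 7 of 9, against 37.4%. The 9 promoters come from 7 genes, and the 2 of Nlrp4b overlap, so sites there are counted more than once. Counted by gene, CCAAT was found in 6 of 7. TAATTG was found in 2 of 9 (Nlrp9a and Nlrp9b), against 8.0% of all promoters, and TATAAA in 1 of 9 (Nlrp9b), against 13.6%. Paralogues share sequence, so these promoters are not independent of each other, and a match describes letters and not binding.

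Sequence shared between the 8 genes bears on how their reads can be assigned. Nlrp4c and Nlrp4e were the closest pair, identical at 93.9% of aligned coding bases, followed by Nlrp9a and Nlrp9c at 87.7%. Words of 85 bases, the read length, were taken from the transcript with the longest coding sequence. For 7 of the genes, 97.7% to 100% of the words occurred in no annotated transcript of another gene. The exception was Nlrp4e at 84.2%, which shared up to 503 words with unprocessed pseudogenes on the same chromosome such as Gm8486, so Nlrp4e counts are uncertain. The stretches below are the longest exact runs shared in the coding sequences of 2 pairs, shown because a read from inside them fits either gene.
Nlrp9a and Nlrp9b, coding bases 589 to 717: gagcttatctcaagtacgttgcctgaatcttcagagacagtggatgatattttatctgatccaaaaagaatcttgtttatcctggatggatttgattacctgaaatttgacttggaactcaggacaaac
Nlrp4c and Nlrp4e, coding bases 121 to 240: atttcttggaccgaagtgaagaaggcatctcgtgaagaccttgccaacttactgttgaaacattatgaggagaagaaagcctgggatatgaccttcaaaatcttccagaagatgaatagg

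The 8 genes covered a wide range of levels, and the order of the means per kb of joined exons was the same in both genotypes. On the scale of CPM per kb of annotated exons, Nlrp9c averaged 199.5 ± 53.2 in DKO and 159 ± 18.4 in wild-type, and Nlrp14 averaged 140.0 ± 21.7 in DKO and 125 ± 18.8 in wild-type (SD over 4 pools each). Nlrp9a came next, at 74.7 ± 20.6 CPM per kb in DKO and 58.8 ± 7.29 in wild-type (SD over 4 pools each). Nlrp4c was the lowest, at 3.45 ± 0.587 CPM per kb in DKO and 4.43 ± 1.24 in wild-type (SD over 4 pools each). Among 14415 tested genes with a length, Nlrp9c ranked 319, Nlrp14 453, Nlrp9a 991 and Nlrp4c 6371 by mean CPM per kb.

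**Figure D1:**
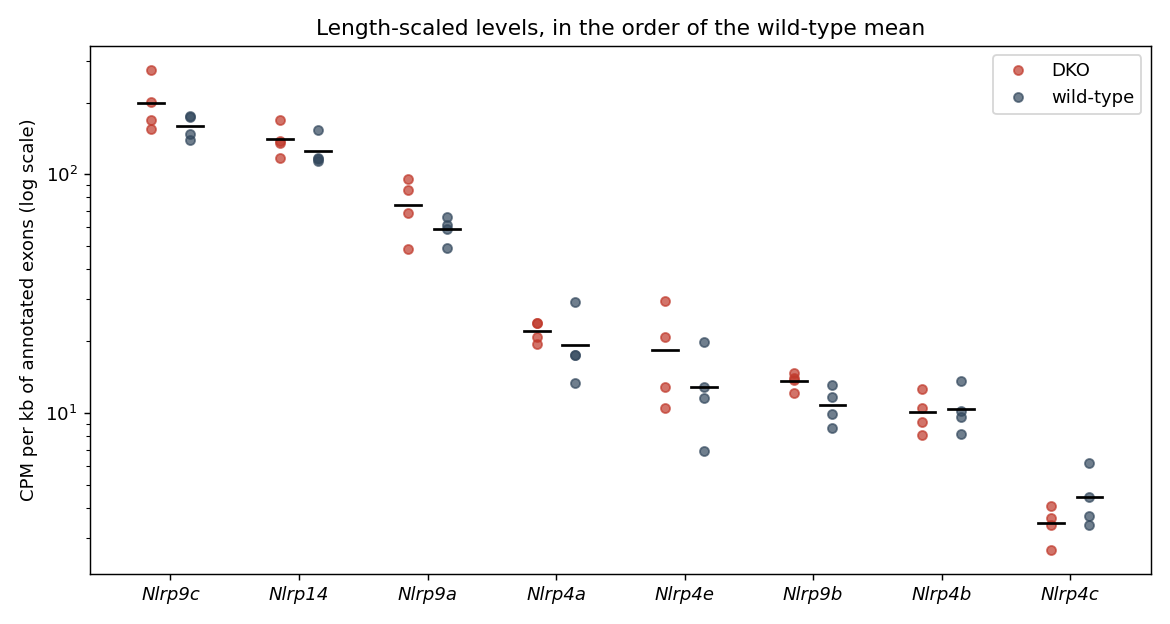
Levels of the 8 genes in CPM per kb of annotated exons on a log axis, 1 point per pool, DKO left of wild-type, with black bars at the means. Nlrp9c, Nlrp14 and Nlrp9a lie highest, Nlrp4c lies lowest (mean 3.45 in DKO, 4.43 in wild-type), and the ranges of Nlrp4a, Nlrp4e, Nlrp9b and Nlrp4b overlap from one to the next.

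Neighbours in this order differed beyond the spread of pools at 3 places: Nlrp14 over Nlrp9a, Nlrp9a over Nlrp4a and Nlrp4b over Nlrp4c had ranges that did not overlap in either genotype. Nlrp4a, Nlrp4e, Nlrp9b and Nlrp4b followed each other with overlapping ranges. Nlrp9c and Nlrp14 had overlapping ranges in CPM per kb, but Nlrp9c was above Nlrp14 in every pool. The exons of Nlrp9c joined over all transcripts are 5935 bases, while its transcript with the longest coding sequence has 3216. Per kb of that transcript, a length chosen after seeing the data, Nlrp9c stood at 368 ± 98.1 CPM per kb in DKO and 294 ± 33.9 in wild-type (SD over 4 pools each), with no overlap with Nlrp14. On that length the order of 3 genes differed between genotypes: Nlrp4e, Nlrp9b and Nlrp4b averaged 18.5, 15.2 and 13.6 CPM per kb in DKO, against 12.9, 12.05 and 14.04 in wild-type. Their ranges overlapped, so this order is within the spread of pools.

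As a share of all counts, the 8 genes took 0.302%, 0.182%, 0.235% and 0.187% in the DKO libraries, against 0.199%, 0.171%, 0.204% and 0.147% in the wild-type libraries. The highest share was that of DKO replicate 1 and the lowest that of wild-type replicate 4, and the genotypes overlapped. Nlrp9c alone held 48.9% to 56.4% of these counts in DKO and 51.0% to 52.6% in wild-type.

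The comparison of genotypes asked whether loss of Gadd45a and Gadd45b went with other levels of these inherited transcripts. None of the 8 genes was called by edgeR's quasi-likelihood test after Benjamini-Hochberg adjustment over 14970 genes, where 0.0267% of all genes tested were called, and 0 of 8 reached an unadjusted p under 0.05, against 10.2% of all genes. DESeq2 and limma-voom also called 0 of 8, against 0.267% and 0.0334% of all genes. The log2 fold change (DKO over wild-type) was positive for 6 of 8 genes, with a median of 0.25, while 51.2% of all genes had a positive value and their median was 0.01. The median of the 8 genes was 0.13 without DKO replicate 1. In 0 of 8 genes did all DKO pools lie above or below all wild-type pools, against 5.34% of all genes (2.79% with DKO the higher). For any difference between pools, the design could not tell the amount of RNA per embryo from the number of embryos that kept it.

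**Figure D2:**
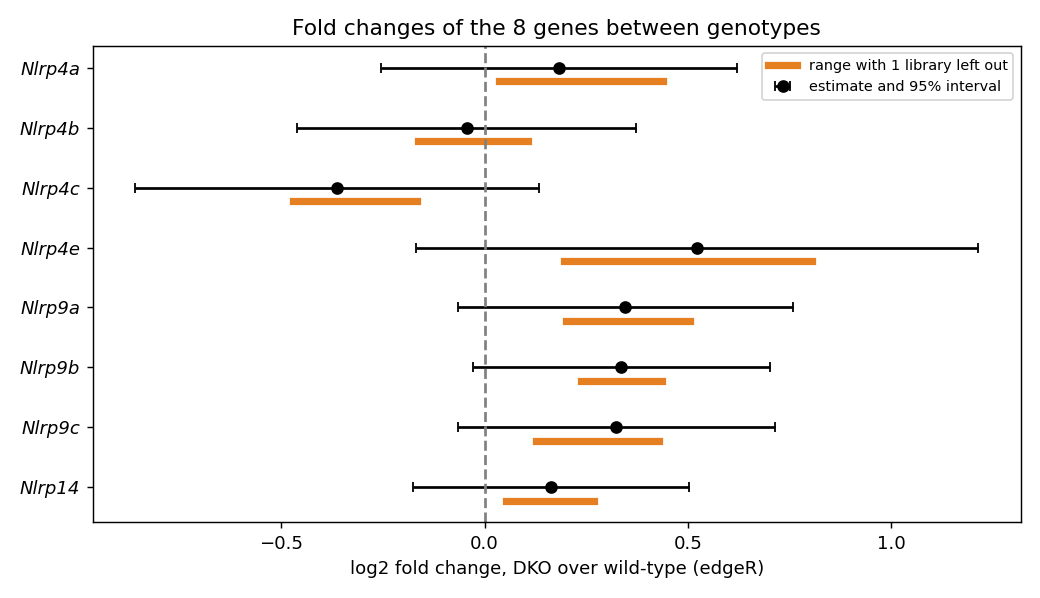
Log2 fold change of each gene, DKO over wild-type, with its 95% interval (black) and the range of the estimate with 1 library left out at a time (orange). All 8 intervals include 0, and the estimate furthest from 0 is that of Nlrp4e at 0.52.

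Nlrp14, which in mice is needed in the mother for embryos to pass early cleavage and which binds UHRF1, a cofactor of maintenance DNA methylation, had 599, 414, 489 and 479 CPM in the DKO pools, against 542, 408, 416 and 403 CPM in the wild-type pools. DKO replicate 1 and wild-type replicate 1 were the high pools of their genotypes. The other 3 DKO pools lay inside the wild-type range. The means were 495 ± 76.7 CPM in DKO and 442 ± 66.6 CPM in wild-type (SD over 4 pools each), a log2 fold change of 0.16 with an SE of 0.16 (adjusted p by edgeR = 0.71). The 95% interval, −0.18 to 0.50, leaves out a fold above 1.42. Without DKO replicate 1 the log2 fold change was 0.05, without wild-type replicate 1 it was 0.27, and without both it was 0.17.

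Of the Nlrp9 group, Nlrp9c had 1626, 1001, 1189 and 920 CPM in the DKO pools, against 1043, 877, 1034 and 828 CPM in the wild-type pools. DKO replicates 1 and 3 were above all wild-type pools and DKO replicates 2 and 4 were not. Between genotypes the log2 fold change was 0.32 with an SE of 0.18 (adjusted p by edgeR = 0.525), with a 95% interval of −0.07 to 0.71. Without DKO replicate 1 it was 0.13.

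Nlrp9a, its neighbour in the cluster, had 332, 169, 301 and 239 CPM in DKO, against 205, 213, 231 and 170 CPM in wild-type. Here 3 DKO pools were above all wild-type pools, and DKO replicate 2 was below them all. On the log2 scale the difference was 0.35 with an SE of 0.19 (adjusted p by edgeR = 0.524), 0.20 without DKO replicate 1 and 0.50 without DKO replicate 2. In the last case the genotypes no longer overlapped, as held for 12.2% of all genes.

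Nlrp9b, which in the mouse intestine forms an inflammasome with the RNA helicase DHX9 against rotavirus, had 51.1, 45.3, 55.0 and 52.3 CPM in DKO, against 48.7, 36.9, 43.5 and 32.1 CPM in wild-type. The DKO pools were close together, and 3 of them lay above every wild-type pool, with DKO replicate 2 below wild-type replicate 1. The estimated log2 difference was 0.34 with an SE of 0.17 (adjusted p by edgeR = 0.495), with the smallest unadjusted p of the 8 genes (edgeR, 0.0679). It was 0.33 without DKO replicate 1, as large as with that library. The genotypes no longer overlapped without DKO replicate 2, or without wild-type replicate 1, where 12.2% and 8.57% of all genes did not overlap. Its level in DKO pools had a coefficient of variation of 8.03%, against 18.1% in wild-type pools.

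**Figure D3:**
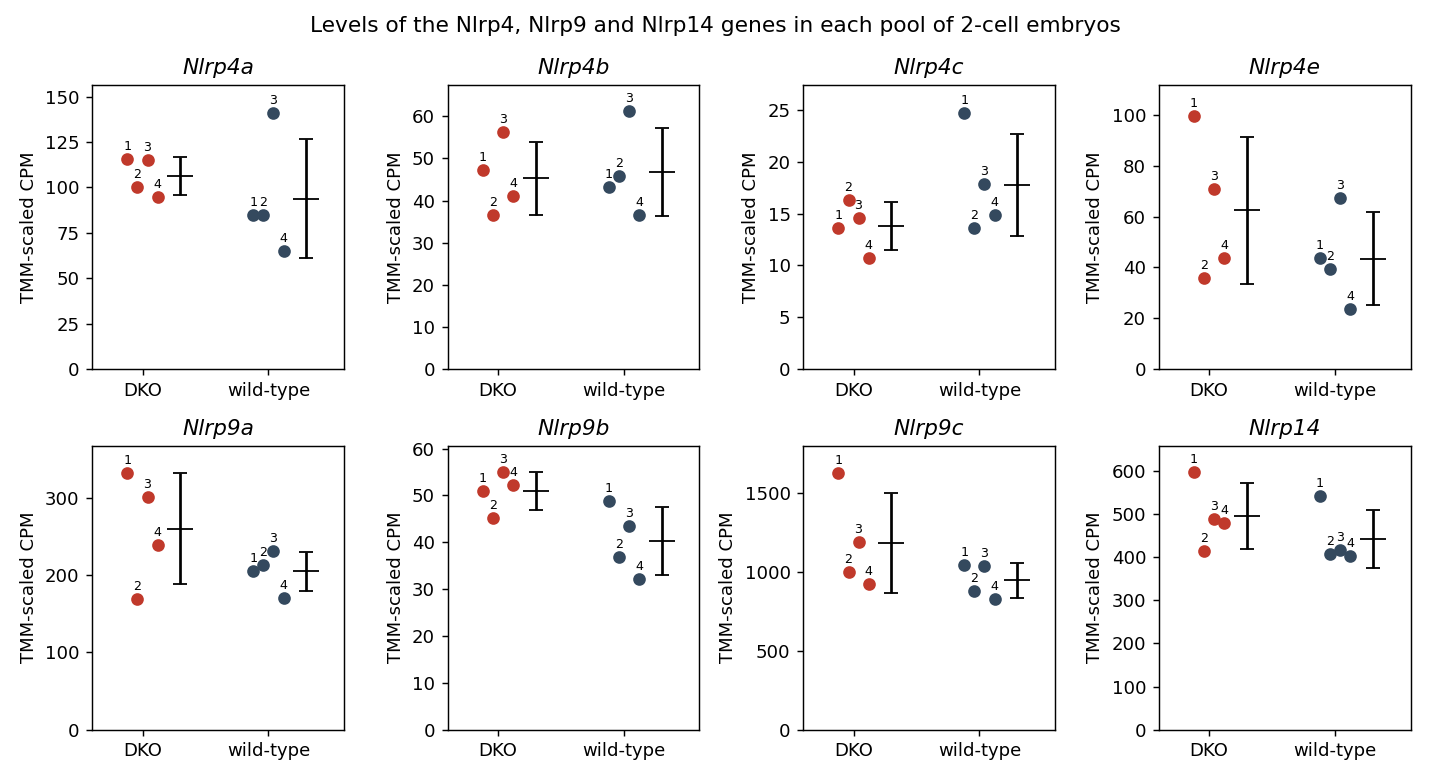
TMM-scaled CPM of each gene in each pool, DKO (red) left of wild-type (blue), numbered by replicate, with the mean and SD of each genotype in black (n = 4 each). Each panel has its own axis from 0, and in each gene the DKO and wild-type points overlap.

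Within a library the Nlrp9 paralogues had overlapping proportions in the genotypes. The ratio of Nlrp9c to Nlrp9a was 3.85 to 5.91 over the DKO pools and 4.12 to 5.09 over the wild-type pools. The ratio of Nlrp9c to Nlrp9b was 17.6 to 31.8 in DKO and 21.4 to 25.8 in wild-type. Its highest value in DKO was 22.1 without DKO replicate 1. These ratios compare CPM, which depend on gene length, and serve only to compare pools.

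Of the Nlrp4 group, Nlrp4e, whose knockdown in mouse embryos arrests early cleavage, had 99.9, 35.7, 70.9 and 43.7 CPM in DKO, against 43.8, 39.2, 67.5 and 23.5 CPM in wild-type. It varied most of the 8 genes, with a coefficient of variation of 46.5% in DKO and 41.8% in wild-type pools. Pools of a genotype differed up to 2.80-fold in DKO and 2.87-fold in wild-type, and the genotypes overlapped. edgeR gave a log2 fold change of 0.52 with an SE of 0.32 (adjusted p = 0.558), with a 95% interval of −0.17 to 1.21, and it was 0.20 without DKO replicate 1, 0.31 without wild-type replicate 4 and 0.80 without wild-type replicate 3.

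Nlrp4a had 116, 100.3, 115 and 94.6 CPM in DKO, against 84.6, 84.5, 141 and 64.8 CPM in wild-type. The DKO pools lay inside the wild-type range, which wild-type replicate 3 set at its top. For this gene the log2 fold change was 0.18 with an SE of 0.21 (adjusted p by edgeR = 0.747), 0.04 without wild-type replicate 4 and 0.44 without wild-type replicate 3. In the last case the genotypes no longer overlapped, as held for 13.3% of all genes.

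Nlrp4b had 47.3, 36.5, 56.4 and 41.0 CPM in DKO, against 43.3, 45.7, 61.2 and 36.5 CPM in wild-type. The genotypes covered nearly the same range, and the log2 fold change was −0.04 with an SE of 0.20 (adjusted p by edgeR = 0.948). Its 95% interval, −0.46 to 0.37, leaves room for a fold of 0.726 to 1.30, and its sign depended on the setting.

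Nlrp4c, the lowest of the 8 genes, had 13.6, 16.3, 14.6 and 10.7 CPM in DKO, against 24.7, 13.6, 17.9 and 14.8 CPM in wild-type. All 4 DKO pools were below the wild-type median, but DKO replicate 2 only just, and it lay above wild-type replicates 2 and 4. Wild-type replicate 1 was the highest pool. Here the log2 difference was −0.36 with an SE of 0.23 (adjusted p by edgeR = 0.567), with a 95% interval of −0.86 to 0.13. It was −0.17 without wild-type replicate 1 and −0.15 without both libraries numbered 1.

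Nlrp4c and Nlrp4e are the closest pair in coding sequence, and their log2 fold changes had opposite signs. The ratio of Nlrp4e to Nlrp4c CPM was 7.35, 2.185, 4.86 and 4.07 in the DKO pools, against 1.77, 2.88, 3.78 and 1.58 in the wild-type pools. The genotypes overlapped through DKO replicate 2, the highest DKO value without DKO replicate 1 was 4.86, and the pair was singled out after its values were seen, so no test is given. Between them, 46 words of 85 bases occur in the transcripts of both. Nlrp4e also shared up to 503 words with pseudogenes such as Gm8486, so its counts and this ratio are uncertain.

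Over the 8 libraries most of these genes varied together. Pearson's r of log2 CPM was positive in 25 of 28 pairs, with a median of 0.63, and the highest were 0.91 for Nlrp4e with Nlrp9a and 0.88 for Nlrp4e with Nlrp9c. Nlrp4c had r between −0.31 and 0.11 with the other 7 genes, but between −0.08 and 0.54 with the genotype means taken out, positive with 6 of 7. The pairs share libraries and their depth, and r across 8 libraries is a description only. The median over all pairs was then 0.55. Without DKO replicate 1, and with genotype means kept, the median was 0.59 and 27 of 28 pairs were positive.

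**Figure D4:**
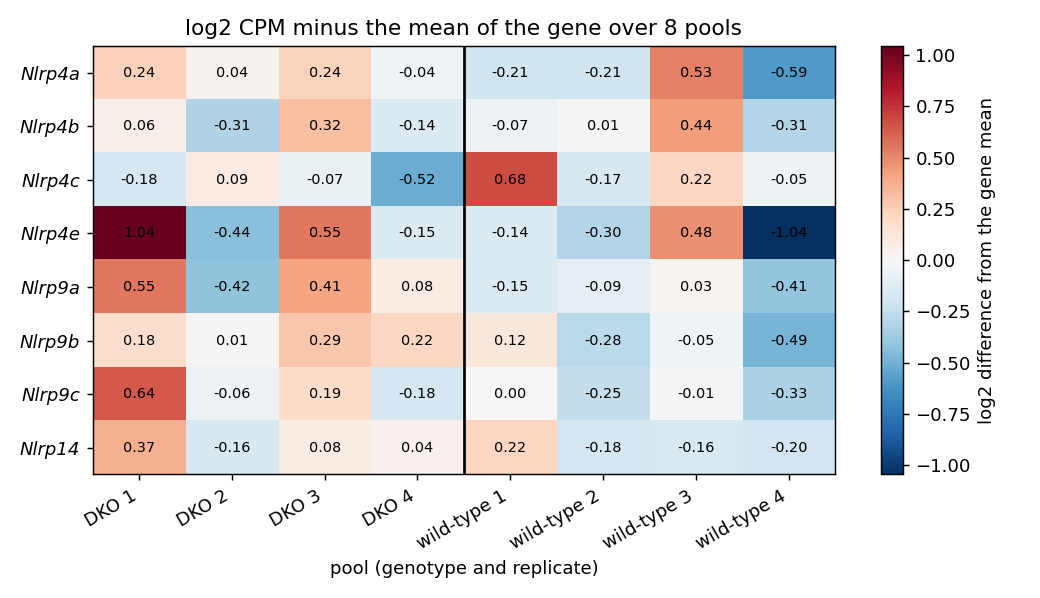
Log2 CPM of each gene in each pool minus the mean of that gene over the 8 pools, DKO pools left of the line and wild-type pools right of it. DKO replicates 1 and 3 are above the gene mean in 7 of 8 genes and wild-type replicate 4 is below it in all 8, with Nlrp4e at 1.04 in DKO replicate 1 and −1.04 in wild-type replicate 4.

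Of 14962 other tested genes, the 5 closest in pattern to the mean log2 CPM of the 8 genes were Bpgm (r = 0.99), Zfp69 (0.98), Map3k6 (0.98), Nudt5 (0.98) and Mrpl24 (0.97) over the 8 libraries. Bpgm encodes bisphosphoglycerate mutase, Zfp69 a zinc finger protein, Map3k6 a kinase of stress signalling, Nudt5 a hydrolase of ADP-sugars and Mrpl24 a protein of the large mitochondrial ribosomal subunit. None of the 5 was called between genotypes (edgeR adjusted p of 0.533 to 0.874). The median r over all other genes was 0.05. Because the 5 were picked as the highest of all these values over 8 libraries, their high r is partly a product of the search.

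Maternal transcripts that are cleared after fertilization were set beside these genes. Their list was chosen with earlier results of these data known. It holds paralogues such as Omt2a and Omt2b, so its shares are a description only. Of 26 such transcripts 25 were tested, 22 were positive on the log2 scale (median 0.37), 8 were higher at an unadjusted p under 0.05, where 5.79% of all genes were, and 0 were called. Without DKO replicate 1 the median was 0.12 and 5 were higher at an unadjusted p under 0.05, against 2.46% of all genes in that fit (edgeR), with 0 called. By smallest p they were led by Omt2b at 0.74 ± 0.20 and Omt2a at 0.60 ± 0.19 (log2 ratios with SE, adjusted p by edgeR of 0.469 for each). Their summed level was 16596 to 32621 CPM in DKO and 10672 to 17698 CPM in wild-type, with DKO replicate 1 the highest pool and 20125 CPM the next DKO value. The mean log2 CPM of the list was 7.58, 7.01, 7.22 and 7.04 in the DKO pools, against 6.91, 6.81, 7.04 and 6.72 in the wild-type pools. That of the 8 Nlrp genes was 7.10, 6.58, 6.98 and 6.65 in DKO, against 6.79, 6.55, 6.92 and 6.31 in wild-type. In both lists wild-type replicate 4 was lowest and DKO replicate 1 highest, and the part of this shared variation in the values of the Nlrp genes was not tested.

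**Figure D5:**
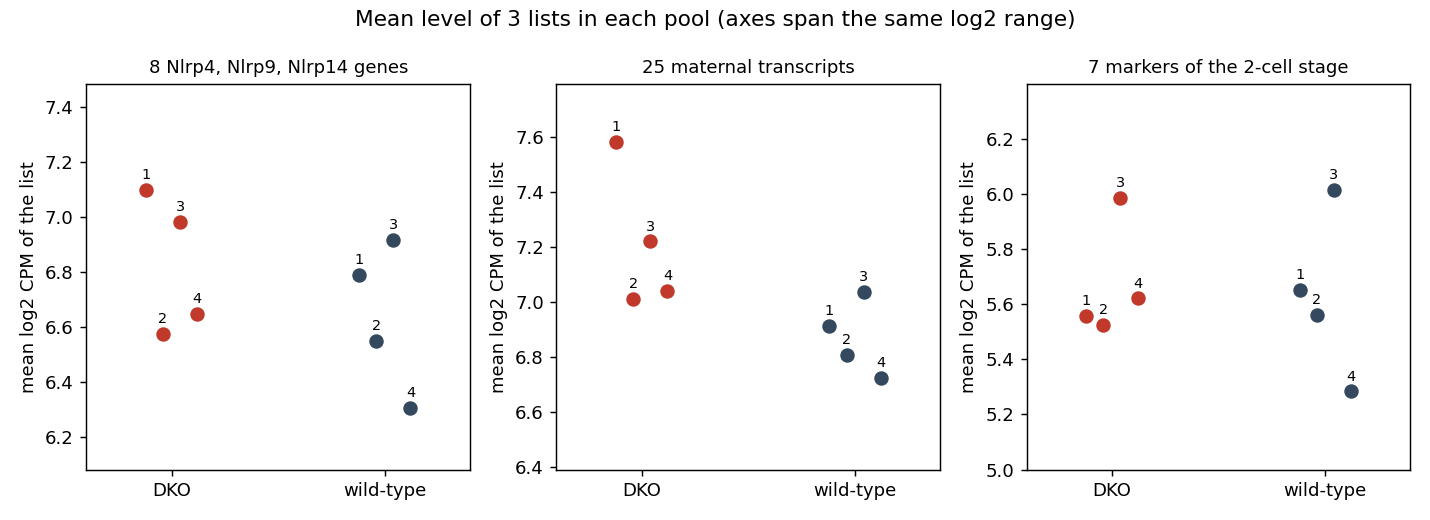
Mean log2 CPM in each pool of the 8 Nlrp genes (left), of 25 maternal transcripts (middle) and of 7 markers of the 2-cell stage (right), DKO left of wild-type, numbered by replicate. DKO replicate 1 is highest and wild-type replicate 4 lowest in the left and middle panels, and DKO replicate 3 and wild-type replicate 3 are highest in the right panel.

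The subcortical maternal complex, which holds NLRP5, and its partners had 5 of 8 tested genes above 0 on the log2 scale, a median of 0.05 and 0 called by edgeR. Nlrp4f, a paralogue with 83.9% coding identity to Nlrp4e, stood at 279.7 ± 82.7 CPM in DKO and 147.6 ± 28.8 CPM in wild-type (SD over 4 pools each). Its log2 fold change was 0.92 with an SE of 0.21 (adjusted p by edgeR = 0.394), and it was called by DESeq2 (adjusted p = 0.0285). Its genotypes did not overlap, as held for 5.34% of all genes. Without DKO replicate 1 the log2 fold change was 0.72 with an SE of 0.18 (adjusted p by edgeR = 0.65). Again there was no overlap, as held for 6.78% of all genes. Ooep and Tle6 had log2 fold changes of 0.41 and 0.25, Zbed3 and Khdc3 0.07 and 0.03, and Nlrp5, Padi6 and Nlrp2 −0.02, −0.07 and −0.18. The difference between Nlrp4f and its relatives Nlrp4a, Nlrp4b, Nlrp4c and Nlrp4e was not tested.

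By mean CPM per kb, the tested NLR genes outside the germ line members and the subcortical complex lay below every member except Nlrp4c. Of 8 other NLRP genes 7 were matched and 2 were tested: Nlrp3, the inflammasome sensor, at 5.71 CPM per kb in DKO and 4.87 in wild-type, with a log2 fold change of 0.23 with an SE of 0.24 (adjusted p by edgeR = 0.728), and Nlrp12 at 1.39 CPM per kb in DKO and 2.07 in wild-type, where it was −0.57 with an SE of 0.26 (adjusted p by edgeR = 0.48). Nlrp10 and Nlrp4d had 0 counts in all libraries. Of 11 other NLR genes 6 were tested and 0 called, with Nlrc4, which senses bacterial flagellin together with NAIP proteins, at 0.77 ± 0.23 (log2 ratio with SE, adjusted p by edgeR of 0.469) and Nlrc3 at 0.44 ± 0.53 (adjusted p = 0.767).

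None of the tested genes of inflammasome signalling, and none of the tested reported partners of NLRP14 and human NLRP4, was called. Pycard, the adaptor of inflammasomes, had 27 counts over the 4 DKO libraries and 35 over the 4 wild-type libraries, and was not tested. Casp1 had 66 counts in DKO and 34 in wild-type. It was tested, with a log2 fold change of 0.94 and an SE of 1.03 (adjusted p by edgeR = 0.741). Of 8 genes of inflammasome signalling 4 were tested, and the smallest p were those of Nek7, a partner of NLRP3, at 0.48 ± 0.20 and Dhx9 at −0.30 ± 0.19 (log2 ratios with SE, adjusted p by edgeR of 0.471 and 0.568). Of 5 reported partners of NLRP14 and of human NLRP4, 4 were tested, led by Uhrf1 at 0.50 ± 0.23 and Tbk1 at −0.30 ± 0.20 (log2 ratios with SE, adjusted p by edgeR of 0.488 and 0.581). Of 8 oocyte transcription factors and growth factors 6 were tested, all positive on the log2 scale, with a median of 0.12, with Gdf9 at 0.46 ± 0.19 and Bmp15 at 0.14 ± 0.21 (with SE, adjusted p by edgeR of 0.471 and 0.81).

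Of the 12 nearest protein-coding genes that are no NLRP genes, on either side of the 6 places where members lie, 4 were tested. Ceacam20, which ends 0.361 kb before Nlrp9b on the same strand in GRCm38, was at 113 ± 23.3 CPM in DKO and 91.7 ± 16.2 CPM in wild-type (SD over 4 pools each), with a log2 fold change of 0.31 with an SE of 0.18 (adjusted p by edgeR = 0.547), and its log2 CPM had r = 0.73 with Nlrp9b over the 8 libraries. Rbmxl2, beside Nlrp14, had 0.28 with an SE of 0.26 (adjusted p by edgeR = 0.687), Cyp2a4, beside Nlrp9c, had −0.45 ± 0.67 (0.814) and Zfp787, beside Nlrp4c, had −0.07 ± 0.53 (0.972), each a log2 fold change with SE and edgeR adjusted p.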

How the data were processed

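The authors deposited 1 table of whole-number counts per gene and library, not normalized. Per the labels' protocols, cDNA was made from polyA RNA with a Smart-Seq v4 kit in 11 PCR cycles, and NuGEN libraries were run on 1 NextSeq flow cell (single-end, 85 cycles). STAR 2.5.2b, featureCounts 1.5.1 and DESeq2 1.18.1 are named per the submitters' processing notes, with builds NCBIM37 and mm9. Strand and multi-mapping settings are not stated, so paralogues and pseudogenes can lose or exchange reads. Symbols matched 32620 of 37310 identifiers.

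The test was that of edgeR 4.0.16 under R 4.3.3 (filterByExpr, TMM scaling, robust quasi-likelihood test, Benjamini-Hochberg adjustment over 14970 genes, threshold 0.05), and checked on simulated data. CPM use TMM library sizes, with a prior count of 2 on the log2 scale. Alternatives used DESeq2 1.42.0, limma 3.58.1, other scalings and filters, and libraries left out. Replicates are separate litters by the labels. PCR reads without molecular identifiers are not independent molecules. Lengths and shared words came from GENCODE mouse release 21 on GRCm38, and promoters from RefSeq on GRCm38.p6; the counts rest on an earlier build.

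The members and lists were chosen with earlier results of these data known. Named genes were the 8 members, Gadd45a and Gadd45b, the 2 smallest p of each list, all tested genes of the subcortical complex and other NLRP lists, the 5 genes closest in pattern, and tested neighbours. Genes named for low counts, for their share of a list or for shared sequence were chosen after their values were seen.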

Additional observations from a re-analysis of the deposited data

Results flagged for a closer look

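Nlrp14 stood at 542 CPM in wild-type replicate 1, far from the other 3 wild-type pools, the nearest of which was at 416 CPM. The gap was 0.908 of the range of the group, above Dixon's 95% critical value for 4 samples. Of 16 groups of a gene and a genotype examined this was the 1 that passed, and chance flags about 1 in 20 groups.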

How the results depend on the processing

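No member was called under any alternative run. The median log2 fold change of the 8 genes was 0.13 to 0.36 with 1 library left out at a time, 0.18 without both libraries numbered 1, and 0.27 with a replicate block. Same-numbered pools did not deviate together (r of 0.00235 to 0.0780) and not every pool correlated best with its own number, so the numbers are not taken as pairs; the replicate block left 4 genes called over all genes. Over all genes, 49 were called by DESeq2, 7 with no filter on low counts and 1 with a mean of at least 10 CPM, against 4, and 4 to 4 with 1 library left out. Members whose genotypes did not overlap numbered 0 to 2 with 1 library left out. There were 2 if DKO replicate 2 was omitted, where 12.2% of all genes did not overlap. There was 1 if wild-type replicate 1 or 3 was omitted, against 8.57% and 13.3% of all genes. Without both libraries numbered 1 there was 1, and the share over all genes was not computed for that run. The sign of Nlrp4b turned in 4 of 19 settings, to 0.0049 with library size only and to a positive value with DKO replicate 2 or 4 or wild-type replicate 3 left out, over a leave-one-out range of -0.1627 to 0.1064. The cause was not tested. No other member changed sign in the settings run. With 4 pools per genotype, the intervals still allow folds of 0.551 to 2.32 across the members.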
